A study of Mus musculus with 574 samples.

Results

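The 37 mitochondrially encoded genes of the mouse were followed in single granulocyte-macrophage progenitors (GMP) before and after treatment with 5-fluorouracil (5-FU). They were chosen as the gene rows whose mapped symbol starts with mt-, 37 of the 46078 gene rows in the count files. Of these, 13 code for protein, 2 for ribosomal RNA and 22 for transfer RNA.

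All cells came from wild-type C57Bl/6 mice aged 6 to 12 weeks. 5-FU, a drug that kills dividing cells, was given once at 150 mg/kg, and GMP were sorted at days 8, 10, 12 and 14, with a day 0 group beside them. The sort took lineage-negative, c-Kit+, Sca-1-, CD34+ and FcγR+ bone marrow cells one by one, and full-length cDNA was made by the Smart-seq2 method, which primes on poly(A) tails. Day 8 was deposited as 2 sets of cells and every other day as 1 set. The labels do not say whether sets came from separate mice, and they mention phosphate-buffered saline controls and crushed or flushed bones without tying these to a set.

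Mitochondrial DNA is a small circle present in many copies per cell. Both strands are transcribed as long RNAs, and the tRNA sequences that separate most genes are cut out to free the mRNAs and rRNAs. The 13 proteins are core subunits of the respiratory chain: complex I takes electrons from NADH, complex III passes them to cytochrome c, complex IV reduces oxygen, and complex V makes ATP. All remaining subunits, and the enzymes that copy, transcribe and process mitochondrial RNA, are encoded in the nucleus.

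Part of the mitochondrial genome has a nuclear copy with nearly the same sequence. Mitochondrial bases 6381 to 11042, 4662 bases on the GRCm38 build, match chr1:24611535-24616197 on the minus strand, where 7 pseudogenes are annotated. The start of mt-Atp6, a subunit of complex V, and of its copy Gm10925 at chr1:24613974-24614651 shows why the pair cannot be separated. Their first 60 bases are the same, as are all 678 aligned bases:
mt-Atp6: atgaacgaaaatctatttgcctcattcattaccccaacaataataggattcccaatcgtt
Gm10925: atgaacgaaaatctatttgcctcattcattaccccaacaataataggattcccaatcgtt
The copies of mt-Co2 (Gm28661, 681 bases), mt-Co3 (Gm28437, 783 bases), mt-Nd4l (Gm10222, 294 bases) and the first 876 bases of mt-Nd4 (Gm28439) were also identical. The copy of mt-Nd3, Gm28438, differed at 1 of 345 bases, T3C, counted from the first base of the mitochondrial gene and shown in capitals:
mt-Nd3: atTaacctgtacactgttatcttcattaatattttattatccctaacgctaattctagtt
Gm28438: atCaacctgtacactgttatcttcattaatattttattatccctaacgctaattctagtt
The last copy, Gm29216, matched bases 1054 to 1545 of mt-Co1 at 486 of 492 positions. Its 6 differences, T1056A, C1057T, A1059G, A1060G, C1062A and A1066T, all stood at the end of the copied stretch and are shown in capitals:
mt-Co1: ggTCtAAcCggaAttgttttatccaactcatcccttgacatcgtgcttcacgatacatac
Gm29216: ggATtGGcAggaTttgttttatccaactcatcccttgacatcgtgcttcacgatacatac
All sequences are from GENCODE vM21 transcripts on GRCm38.

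The order and spacing of the genes were also kept on chromosome 1. Of the 6 gaps between neighbouring copies, 5 had the length found in mitochondrial DNA, and the gap between the copies of mt-Nd3 and mt-Nd4l was 74 bases in place of 73. Among all 50-base words of each gene, the share also present in another annotated transcript was 100% for mt-Co2, 99.9% for mt-Co3, 99.5% for mt-Atp6, 98.8% for mt-Nd4l and 98.0% for mt-Nd3. It was 62.2% for mt-Nd4, 51.1% for mt-Co1, 8.19% for mt-Nd2, 7.61% for mt-Nd5 and 1.04% for mt-Rnr2. Not all of this sharing was with the 7 pseudogenes on chromosome 1. Words of mt-Co1 were also found in Gm11512 and Gm13340, of mt-Co2 in Gm13341 and of mt-Atp6 in AC124578.3. The shared words of mt-Nd2 lay in Gm13339, those of mt-Nd5 in Gm11407 and Gm4076, and those of mt-Rnr2 in Gm20594. No such word was shared for mt-Nd1, mt-Cytb, mt-Nd6, mt-Rnr1 and mt-Atp8, although mt-Atp8 lies in the copied stretch. Most of mt-Atp8 lies in a gap that holds no annotated pseudogene. Its end overlaps the start of mt-Atp6, and so of Gm10925, by less than 50 bases. The read length is not given in the sources used here.

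Of 573 cells with counts, 500 passed a minimum of 50000 gene reads and 1000 detected genes and were kept. They were 92 cells at day 0, 90 and 93 in the day 8 sets, 93 at day 10, 85 at day 12 and 47 at day 14. Reads in genes summed to between 4849678 (day 14) and 30691997 (the first day 8 set), and the median number of genes per cell ran from 5258 to 8335.5 in the same sets. Transcripts of the sort markers were read in most kept cells: Kit in 76.6% to 100%, Cd34 in 74.5% to 100% and Fcgr3 in 76.6% to 96.7%, while Ly6a, which encodes Sca-1, was read in 21.5% to 40.2%. The summed level of 6 granulocyte genes was 36583 and 27914 CPM in the day 8 sets and 76477 to 81614 CPM at the other days, where CPM is a read count scaled to a common total per set with edgeR's TMM factors. The day 14 set was the shallowest and had the most cells left out, 49 of 96.

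The share of gene reads that fell in the 37 genes was 5.81% at day 0, 6.52% and 5.62% in the day 8 sets, 5.77% at day 10, 5.10% at day 12 and 4.25% at day 14. The day 8 sets averaged 6.07% ± 0.638 (SD, n = 2). Day 0 and day 10 lay between them, and days 12 and 14 lay below both. With 1 set at each of the other days these differences have no replicate check, and no test was made.

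The part of the share taken by mRNA was 2.67% at day 0, 2.83% and 2.38% at day 8, 2.64% at day 10, 2.39% at day 12 and 1.83% at day 14. The rRNA part was 3.13%, 3.68%, 3.23%, 3.12%, 2.71% and 2.41% in the same order. Both parts were lowest at day 14.

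One nuclear gene, Slc34a2, a sodium-phosphate cotransporter, took a large and uneven part of the reads that form the denominator. Its median share per cell was 18% at day 0, 9.68% and 16.3% at day 8, 13.4% at day 10, 16.9% at day 12 and 31.2% at day 14. With its reads left out of the total, the mitochondrial share became 6.98%, 7.12%, 6.51%, 6.40%, 6.03% and 6.17%, and day 14 was no longer the lowest. The source of the Slc34a2 reads was not tested.

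Synthetic spike-in RNA gave another denominator, since a fixed amount is meant to go into each cell. The median cell had 2.22 mitochondrial reads per spike-in read at day 0, 5.06 and 3.69 at day 8, 3.37 at day 10, 2.30 at day 12 and 2.01 at day 14. Nuclear reads per spike-in read were 38.5, 74.3, 67.5, 55.8, 47.9 and 40.8 in the same order, and both measures fell from day 8 to day 14. At day 14 nuclear reads lay above day 0 and mitochondrial reads below it. Both day 8 sets lay above every other set by either measure, and more RNA per cell and less spike-in per well cannot be told apart.

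**Figure D1:**
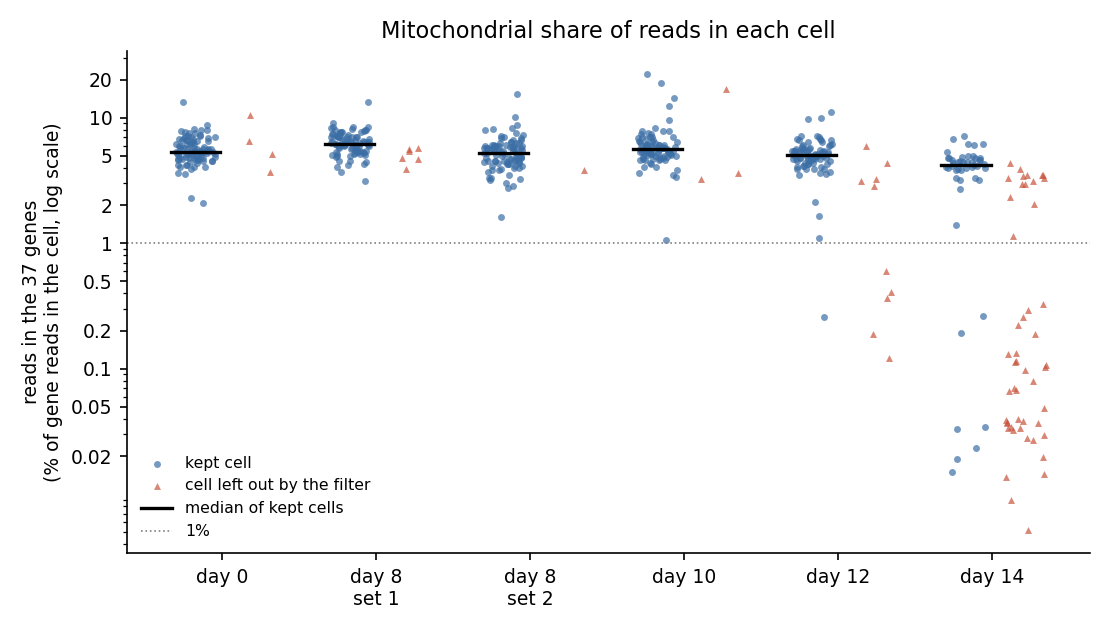
Percent of gene reads in the 37 mitochondrial genes (y axis, log scale) for each cell, by set (x axis), with kept cells as circles, cells left out by the filter as triangles and the median of kept cells as a bar. The medians lie at 4.24% to 6.22%, and cells under the dotted line at 1% are from days 12 and 14.

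Single cells spread widely around these values. The median cell gave 5.38% at day 0, with cells from 2.10% to 13.4%. In the day 8 sets the medians were 6.22% (3.13% to 13.4%) and 5.26% (1.62% to 15.5%). At day 10 the median was 5.6%, and the range, 1.06% to 22.5%, reached the highest value of any kept cell. At day 12 it was 5.03% (0.258% to 11.1%) and at day 14 it was 4.24% (0.0150% to 7.22%). Above 10% stood 9 of the 500 kept cells, 4 of them at day 10.

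A group of cells with almost no mitochondrial reads stood apart from the rest. Below 1% lay 48 cells, of which the highest had 0.603%, and the next cell above had 1.06%. They came from day 14 (42 cells) and day 12 (6 cells) alone. The read and gene filter left out 40 of them and kept 8, 7 from day 14 and 1 from day 12. Their number of mitochondrial reads was 1 to 298, with a median of 13.5, against 323 to 90937 and a median of 9556 in the other 525 cells.

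These cells also differed in their nuclear reads. They had 635 to 3834 genes with a read (median 1730), where the others had 2059 to 11530 (median 7136), and a median of 15.3 gene reads per spike-in read against 54.8. Slc34a2 took a median of 81.6% of their gene reads and 16.2% in the others. With Slc34a2 left out of the total their mitochondrial share was still lower, at a median of 0.287% against 6.41%, with ranges of 0.0169% to 2.5% and 1.82% to 35.8% that overlapped. Of the sort markers, Kit was read in 37.5% of them and 90.9% of the others, Cd34 in 25% and 94.1%, and Fcgr3 in 12.5% and 92.6%. The granule genes Mpo and Elane, which are very abundant in GMP, were read in 100% and 95.8%. Whether these wells held an intact cell was not tested.

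The remaining 33 cells that the filter left out carried ordinary mitochondrial shares. Their medians were 5.86% at day 0 (4 cells), 5.10% in the first day 8 set (6 cells), 3.66% at day 10 (3 cells), 3.26% at day 12 (5 cells) and 3.31% at day 14 (14 cells). The single such cell of the second day 8 set had 3.86%. Apart from day 0, each was lower than the median of kept cells of the same set with at least 1%, which ran from 4.42% to 6.22%. The 7 low cells kept at day 14 held 8.54% of that set's reads. Without them the day 14 share was 4.64%, or 6.30% with Slc34a2 also left out.

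Ribosomal RNA made up the larger part of the reads. mt-Rnr2, the 16S rRNA of the large mitochondrial ribosomal subunit (chrM:1094-2675), stood at 28777 CPM at day 0, 32843 and 27975 at day 8, 29177 at day 10, 25574 at day 12 and 27202 at day 14. mt-Rnr1, the 12S rRNA of the small subunit (chrM:70-1024), gave 2108, 1555, 1828, 1455, 1239 and 1932. Both RNAs come from the same transcript, yet mt-Rnr2 had 13.6 to 21.1 times as many reads. Reads in rRNA per read in mRNA were 1.17 at day 0, 1.3 and 1.36 at day 8, 1.18 at day 10, 1.13 at day 12 and 1.32 at day 14.

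Of the 13 mRNA genes, 3 took 84.8% to 88.7% of the mRNA reads. mt-Co1, the catalytic subunit of complex IV (chrM:5328-6872), had 8875, 9938, 7526, 9564, 7780 and 7100 CPM in day order, so the day 8 sets lay on both sides of day 0. mt-Nd1, a membrane subunit of complex I (chrM:2751-3707), had 6691, 7604, 6314, 6120, 6078 and 5875. mt-Cytb, the only mitochondrially encoded subunit of complex III (chrM:14145-15288), had 6758, 5996, 4848, 6972, 6627 and 5794. Each varied by less than 1.5 times between sets.

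A middle group was formed by 4 further subunits of complex I. mt-Nd4 had 1487, 1041, 1160, 1207, 1198 and 1315 CPM, and mt-Nd5 had 1541, 1275, 1269, 1352, 1324 and 1135. mt-Nd2 had 480, 360, 526, 359, 386 and 447. mt-Nd6, the only mRNA gene on the minus strand, had 355, 217, 238, 263, 241 and 260. Day 0 was the highest set for mt-Nd4, mt-Nd5 and mt-Nd6, and the day 8 sets were the lowest pair for mt-Nd4 and mt-Nd6.

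The other 6 mRNA genes were almost unread, with 0.287% to 0.538% of mRNA reads between them. mt-Atp6 had 60.4, 45.6, 33, 39.3, 39.8 and 60.2 CPM. mt-Co3 had 39.9, 26.8, 20.3, 18.3, 26.2 and 37.8, and mt-Co2 had 20.1, 14.7, 10.3, 9.94, 9.70 and 13.9. For each of these 3, day 0 was the highest set. mt-Atp8, mt-Nd3 and mt-Nd4l stayed between 0.864 and 5.15 in all sets.

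On a scale of CPM per kilobase of gene, which corrects for length alone, mt-Rnr2 averaged 18073, mt-Nd1 6737, mt-Co1 5478 and mt-Cytb 5390. mt-Rnr1 followed with 1766, mt-Nd4 with 896, mt-Nd5 with 722, mt-Nd6 with 505 and mt-Nd2 with 411. A wide step then led to mt-Atp6 at 68.1, mt-Co3 at 36, mt-Co2 at 19.2, mt-Atp8 at 15.1, mt-Nd3 at 8.15 and mt-Nd4l at 5.08. These 6 are the genes that lie whole inside the stretch copied on chromosome 1, and the 2 genes that lie partly inside it, mt-Co1 and mt-Nd4, stood above the step. The order differed per 1000 of the 50-base words found in no other transcript. There mt-Rnr2 had 18847 CPM, mt-Co1 11579, mt-Nd1 7100, mt-Cytb 5631, mt-Nd4 2459 and mt-Rnr1 1861. All reads of a gene enter this measure, also any that fall in shared words.

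**Figure D2:**
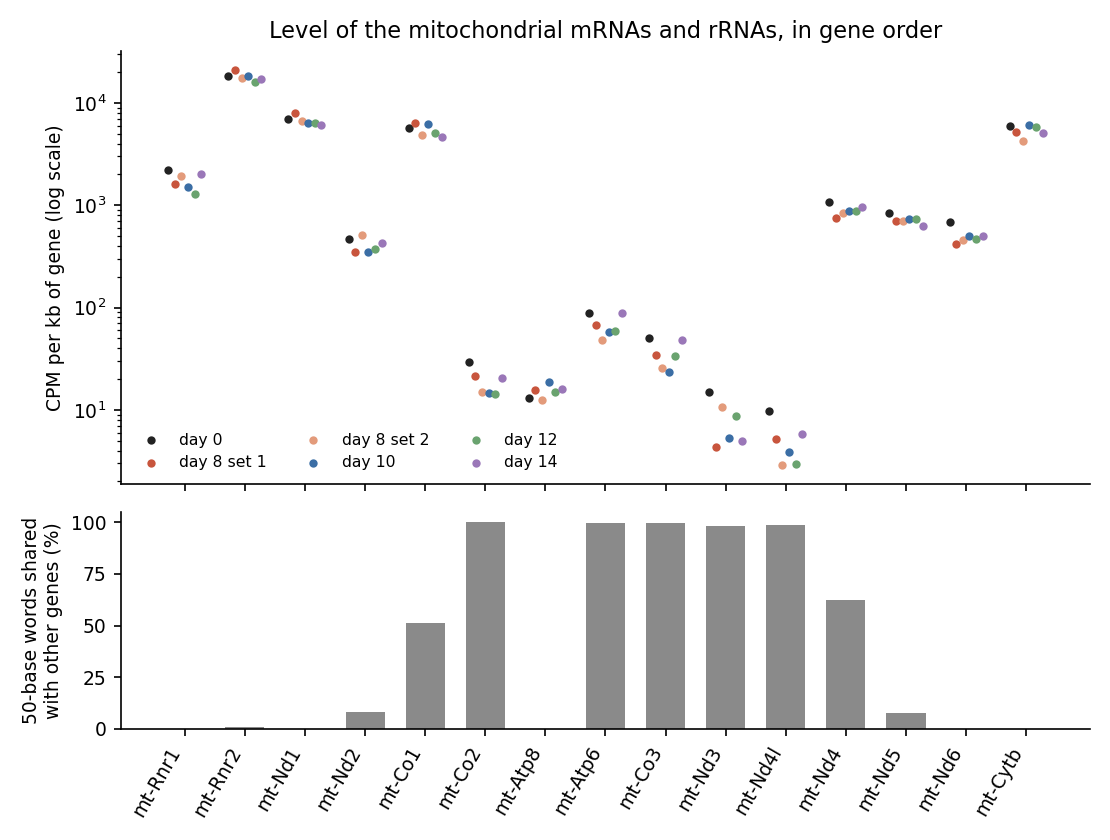
Level of each mRNA and rRNA gene in CPM per kilobase (log axis), with 1 point per set and the genes in their order along mitochondrial DNA, above the percent of the gene's 50-base words found in another annotated gene. The genes almost wholly shared have means of 5.08 to 68.1, as has mt-Atp8 (15.1), whereas every other gene has a mean of 411 or above.

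The 7 chromosome 1 copies together had more reads than the 6 genes in every set, from 797 against 477 at day 14 to 4509 against 3061 in the first day 8 set. These sums are not matched. The copies include those of mt-Co1 and mt-Nd4, which are not among the 6 genes, and mt-Atp8 has no annotated copy of its own. Gm10925 had 66.3, 47.7, 33.5, 38.7, 46.1 and 74.4 CPM in day order, so that mt-Atp6 held 44.7% to 50.3% of the reads of the pair. Gm28437, the copy of mt-Co3, had 53.9, 35.2, 31.8, 30.9, 39.9 and 53.5. Together the 7 copies had 0.425% to 0.899% as many reads as the mitochondrial mRNAs. The row for reads without a unique placement held 0 in every cell, which does not tell how such reads were treated. The levels of mt-Co2, mt-Co3, mt-Atp6, mt-Atp8, mt-Nd3 and mt-Nd4l, and of their complexes, are therefore uncertain. So are those of mt-Co1 and mt-Nd4, which share 51.1% and 62.2% of their words, and with them the balance between complexes. The split of reads between the genes and the copies was not tested.

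Whether any of the genes changed between days was tested with edgeR's quasi-likelihood test on the kept cells summed per set, over 15145 genes with Benjamini-Hochberg adjustment and a threshold of 0.05. The spread rests on the pair of day 8 sets alone, with 1 residual degree of freedom and 51.5 prior degrees of freedom, and the other days are assumed to vary like them. The p-values therefore measure only how far these sets scatter, which could be technical variation. Comparisons with day 0 share that set, and those with day 8 share both of its sets. Of the 37 genes, 29 had enough reads to be tested: all mRNA and rRNA genes and 14 of the 22 tRNA genes.

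No mRNA gene and no rRNA gene passed the test in any of the 7 comparisons. Between day 8 and day 0, 2.61% of all tested genes were called higher and 3.02% lower, and 0 of the 29 members were called. edgeR gave 3 members an unadjusted p under 0.05, and DESeq2 and limma-voom each called 0. The log2 fold change was 0.08 (SE 0.33, adjusted p = 0.931) for mt-Rnr2, −0.32 (SE 0.29, adjusted p = 0.604) for mt-Rnr1, 0.06 (SE 0.31, adjusted p = 0.949) for mt-Nd1, −0.02 (SE 0.32, adjusted p = 0.982) for mt-Co1 and −0.32 (SE 0.31, adjusted p = 0.630) for mt-Cytb. mt-Nd6 came nearest to the threshold, at −0.64 (SE 0.26, adjusted p = 0.144).

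Over the 13 mRNA genes the log2 fold changes between day 8 and day 0 ran from −1.24 to 0.12 with a median of −0.43, and 11 were below 0, where the median over all tested genes was 0.01. Under spike-in scaling, where that median was 0.99, mt-Rnr1, mt-Co1, mt-Cytb and mt-Nd6 lay above 0, at 0.66, 0.97, 0.67 and 0.34. That scaling called 3 members, beside 6582 of all 15145 genes. For the 7 genes with a mean over 200 CPM, the 95% intervals reached from −1.16 to 0.68.

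At later days the calls among the members were 3 tRNA results. Between day 10 and day 0, 0.687% of all genes were called higher and 0.766% lower, and 1 of 29 members was lower. Between day 12 and day 0 the shares were 0.0660% and 0.106%, with 0 members called, 3 at an unadjusted p under 0.05 in edgeR, and 0 by DESeq2 and by limma-voom. Between day 14 and day 0 they were 0.858% and 0.720%, with 0 members called, 1 at an unadjusted p under 0.05 in edgeR, and 0 by both other tools. Against day 8, the shares were 0.482% higher and 0.310% lower at day 10, with 1 member lower, and 1.39% and 1.10% at day 12, with 0 members called by any of the tools and 4 at an unadjusted p under 0.05 in edgeR. At day 14 they were 7.58% and 6.58%, with 1 member lower.

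**Figure D3:**
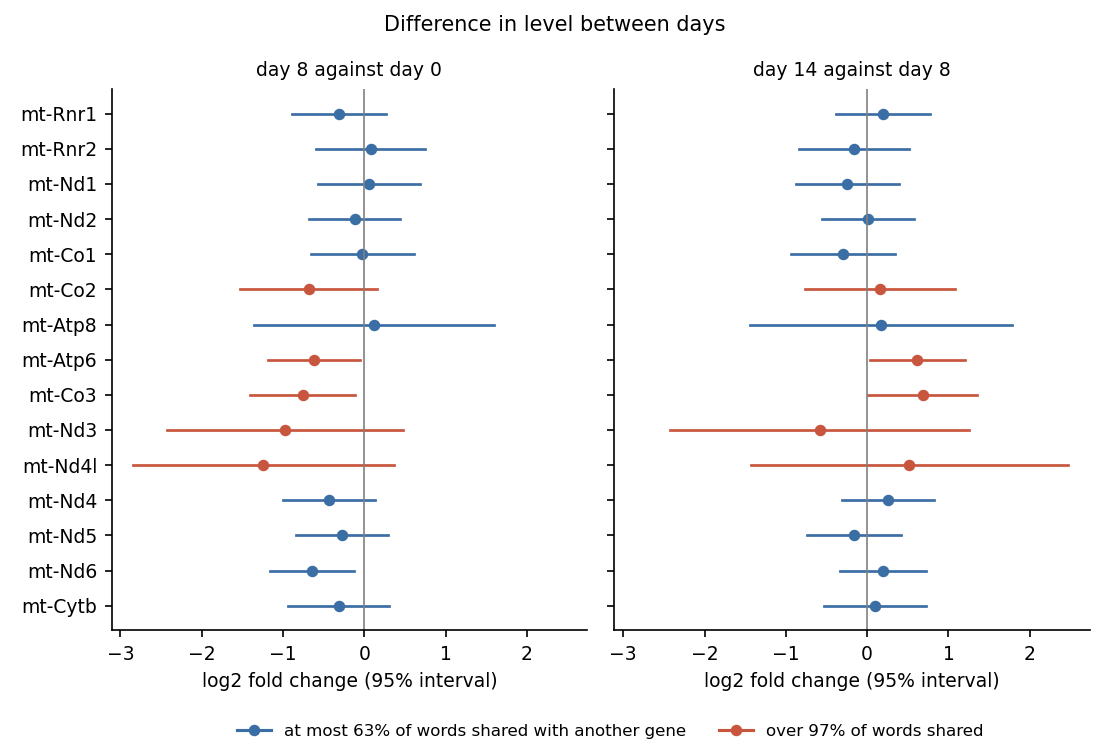
Log2 fold changes with 95% intervals (x axis) of the mRNA and rRNA genes (y axis) between day 8 and day 0 and between day 14 and day 8, coloured by whether nearly all 50-base words of the gene are shared. For the 7 mRNA genes with a mean over 200 CPM, the intervals stay within −1.16 and 0.83.

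The comparison of day 14 with day 8 called the most genes of all comparisons and still no mRNA or rRNA gene. Spike-in scaling, under which the median of all genes was −1.49 in place of −0.05, called 17 of 29 members. It also called 9293 of all 15145 genes. With TMM scaling, the mRNA fold changes of this comparison ran from −0.58 to 0.68 on the log2 scale. The largest was that of mt-Co3 (0.68, SE 0.34, adjusted p = 0.170), followed by mt-Atp6 (0.62, SE 0.29, adjusted p = 0.151), both inside the copied stretch. The pseudogene Gm10925, which is identical to mt-Atp6, was called higher at 0.87 (SE 0.28, adjusted p = 0.0301), but by neither DESeq2 nor limma-voom. It was lower, at −1.94, over cells with at least 200000 reads and 2000 genes, and at −0.57 under spike-in scaling. Day 14 has 4 cells of that depth, and the median of all genes over such cells was −0.55.

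The balance between complexes was set out as shares of the mRNA reads. Complex I took 40.1% at day 0, 39.6% and 43.3% at day 8, 35.9% at day 10, 38.9% at day 12 and 41% at day 14. Complex IV took 34%, 37.6%, 34.4%, 37%, 33% and 32.4%. Complex V took 0.162% to 0.288%, and its genes lie wholly in the copied stretch. The day 8 sets differed by as much as most days did, with 41.5% ± 2.65 (SD, n = 2) for complex I and 36% ± 2.26 for complex IV.

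Complex III, which is mt-Cytb alone, was the exception. It took 25.7% of mRNA reads at day 0, 22.6% and 22.1% at day 8, 26.9% at day 10, 27.9% at day 12 and 26.3% at day 14. The day 8 sets averaged 22.3% ± 0.368 (SD, n = 2), and all 4 other sets lay above both. mt-Nd1, like mt-Cytb, shared no 50-base word with another annotated transcript, and unannotated copies were not searched. It showed the opposite order against days 0, 10, 12 and 14, with 28.7% and 28.8% at day 8 and 23.6% to 26.7% elsewhere. The fold change of neither gene passed the test.

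**Figure D4:**
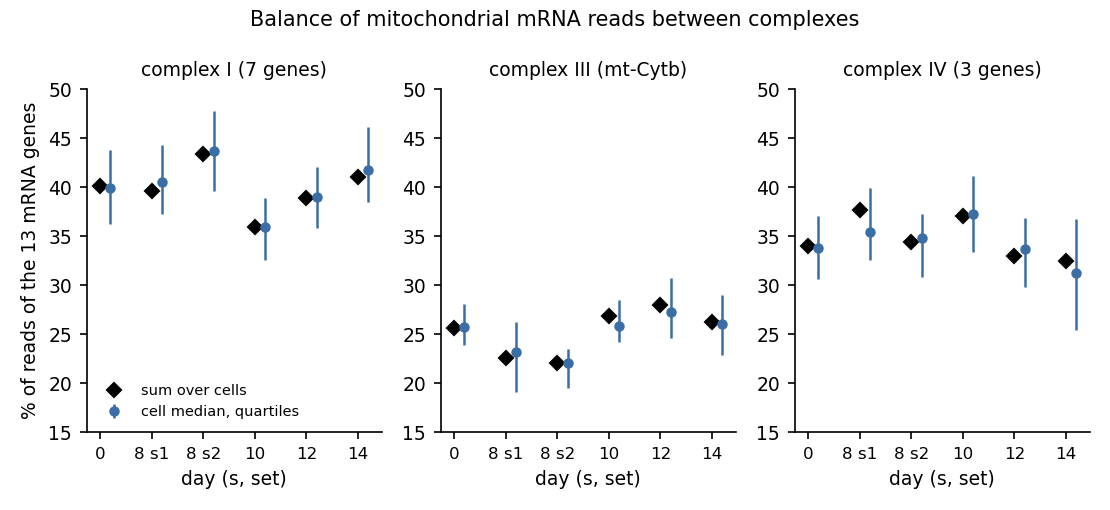
Percent of mitochondrial mRNA reads (y axis, starting above 0) of complexes I, III and IV in each set (x axis), as the sum over kept cells (diamonds) and as the cell median with quartiles (circles and bars). The day 8 sets have the lowest complex III shares, 22.6% and 22.1%.

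As a ratio, mt-Cytb had 1.01 reads per mt-Nd1 read at day 0, 0.789 and 0.768 at day 8, 1.14 at day 10, 1.09 at day 12 and 0.986 at day 14. Cells with at least 200 reads of the pair gave the same order at day 8, with medians of 0.812 and 0.739 against 0.952 to 1.12 in the other sets. The ratio was below 1 in 78.9% and 80.4% of the day 8 cells, in 50% at day 0, 30.8% at day 10, 47.6% at day 12 and 52.5% at day 14. The granulocyte genes were also lower in both day 8 sets, and over cells within a set the mt-Cytb share had a Spearman rho of −0.125 to 0.139 with them and of −0.0216 to 0.154 with the number of reads. Other marker genes differed too. Summed monocyte genes had 1178 and 479 CPM at day 8 and 1785 to 6196 elsewhere, and stem and multipotent progenitor genes 542 and 921 against 98.7 to 566. A relation of the ratio to the mix of cells was not tested. These ratios were examined after the values were seen, and only day 8 has more than 1 set.

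Transfer RNAs gave 9992 reads in all, 0.142% of the reads in the 37 genes. A mitochondrial tRNA is short (59 to 75 bases here), is not polyadenylated as such, and adjoins or overlaps mRNAs, and no strand was marked. Reads counted there may therefore span a precursor or a neighbouring gene, which was not tested. No read was counted for mt-Tw, mt-Td, mt-Tg and mt-Th, and 7 of the 22 genes had fewer than 20 reads. The 5 with the most reads held 80.2%, and the results turn on the following 3, with their anticodons in capitals:
mt-Tq: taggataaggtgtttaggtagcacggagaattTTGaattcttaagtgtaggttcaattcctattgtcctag
mt-Tt: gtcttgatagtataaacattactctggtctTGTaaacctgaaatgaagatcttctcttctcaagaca
mt-Tp: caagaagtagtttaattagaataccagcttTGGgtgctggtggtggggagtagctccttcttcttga

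mt-Tq is the tRNA for glutamine, on the minus strand at chrM:3772-3842, between mt-Nd1 and mt-Nd2. Its level was 35.4 CPM at day 0, 15.8 and 28.6 at day 8, 7.22 at day 10, 11.1 at day 12 and 33.6 at day 14. Days 10 and 12 lay below all other sets. It was lower at day 10 than at day 0, by −2.30 on the log2 scale (SE 0.45, adjusted p = 0.0018), and lower at day 10 than at day 8, by −1.62 (SE 0.40, adjusted p = 0.0325). The day 8 call was lost with DESeq2 (adjusted p = 0.153) and limma-voom (adjusted p = 0.0987), and without the second day 8 set the difference was −1.13. In cells thinned to 50000 reads, mt-Tq was read in 73.9% at day 0, 61.1% and 76.3% at day 8, 35.5% at day 10, 42.4% at day 12 and 48.9% at day 14. Without thinning these were 92.4%, 94.4%, 96.8%, 72%, 68.2% and 53.2%.

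mt-Tt, the tRNA for threonine, lies on the plus strand at chrM:15289-15355, directly after mt-Cytb. The end of mt-Cytb shows how closely they adjoin, since its last base, in capitals, is the first base of a stop codon that polyadenylation completes:
mt-Cytb: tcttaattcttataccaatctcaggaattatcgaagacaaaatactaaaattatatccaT
mt-Tt had 53 reads at day 0, 120 and 232 at day 8, 76 at day 10, 37 at day 12 and 1 at day 14, or 3.18, 3.66, 8.35, 2.73, 2.15 and 0.249 CPM. It was called lower at day 14 than at day 8, by −4.56 (SE 1.25, adjusted p = 0.00954). The ratio of the levels, with 1 read against 352, was 0.0428 with a 95% exact interval of 0.00108 to 0.240, which covers counting error only. DESeq2 (adjusted p = 0.081) and limma-voom (adjusted p = 0.0509) did not call it.

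mt-Tp, the tRNA for proline, lies next to mt-Tt on the minus strand at chrM:15356-15422. It had the most reads of any tRNA gene, at 35, 27.8, 54.9, 22, 20.6 and 29.6 CPM, and was not called in any comparison. The remaining 2 of the top 5 were low, with mean levels of 4.28 for mt-Ts1, a serine tRNA inside the copied stretch, and 3.79 for mt-Tl1, a leucine tRNA between mt-Rnr2 and mt-Nd1.

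**Figure D5:**
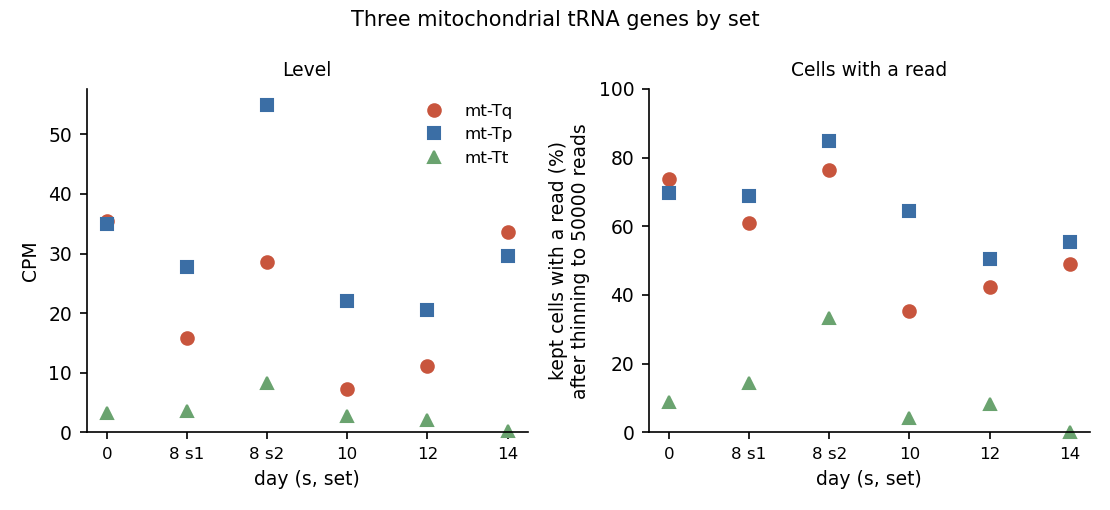
Levels of mt-Tq, mt-Tp and mt-Tt in CPM (left) and the percent of kept cells with a read after thinning to 50000 reads (right), for each set (x axis). mt-Tq is lowest at days 10 and 12 (7.22 and 11.1 CPM), and mt-Tt stands at 0.249 CPM at day 14, which is 1 read.

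Across kept cells, the mRNA and rRNA reads varied together. Set against nuclear reads, they had a Spearman rho of 0.487 to 0.768 within sets, where both share the cell, its library and the denominator. Among 36 pairs of the 9 better-read genes, the pair of rRNAs had the highest mean rho over sets, 0.620, followed by mt-Nd4 with mt-Cytb (0.603) and mt-Nd5 with mt-Nd6 (0.592), which overlap on opposite strands. The lowest were mt-Rnr1 with mt-Co1 (0.106) and mt-Nd2 with mt-Co1 (0.157). The mitochondrial share had a rho with the number of genes read of 0.700 at day 14, −0.028 to 0.343 in the other sets, and with the Slc34a2 share of −0.668 at day 14, −0.442 to 0.120 elsewhere.

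Of 3566 nuclear genes detected in 50% or more of the kept cells in each set, the one most like the mitochondrial mRNAs over cells was Gm10925, with a mean rho of 0.422 over the 6 sets. CT010467.1, a ribosomal RNA gene, followed with 0.400, then Gm28437 with 0.349, Ybx1, which encodes a nucleic-acid-binding protein, with 0.313, and Prtn3, which encodes the granule protease proteinase 3, with 0.310. Of these 5, 2 are copies that share sequence with members. The least like were Trp53, which encodes p53, at −0.272, Slc34a2 at −0.269, Reln at −0.263, Rab3gap1 at −0.257 and Gm14988 at −0.253. The median gene had 0.074, and all values share the nuclear denominator.

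The nuclear genes that work with the 37 were taken from lists of known function. None of 74 tested nuclear subunits of the respiratory complexes was called between day 8 and day 0 by edgeR (4 at an unadjusted p under 0.05) or by DESeq2 or limma-voom, with a median log2 fold change of 0.13 and 48 above 0. The 9 of complex III had a median of 0.34 with 8 above 0, beside −0.32 for mt-Cytb. Between day 14 and day 8, where 6.58% of all genes were called lower, 3 of the 74 were lower by edgeR, 3 were called by DESeq2 and 1 by limma-voom. They were Ndufb6 of complex I (−1.13, SE 0.29, adjusted p = 0.0061), Cyc1, the cytochrome c1 of complex III (−0.90, SE 0.28, adjusted p = 0.0241), and Atp5b, the catalytic subunit of complex V (−0.87, SE 0.31, adjusted p = 0.0498). limma-voom called neither Ndufb6 (adjusted p = 0.153) nor Cyc1 (adjusted p = 0.0628), and Atp5b was lost with DESeq2 size factors (adjusted p = 0.0606). Cyc1 had 265 CPM at day 0, 442 and 383 at day 8, 321 at day 10, 253 at day 12 and 221 at day 14.

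Of 15 genes for mitochondrial transcription and replication, 0 were called in any comparison by edgeR, DESeq2 or limma-voom, and edgeR gave 1 to 5 of them an unadjusted p under 0.05. Of 24 for RNA processing and stability, 0 were called between day 8 and day 0 by any of these tools (median 0.36, with 8 at an unadjusted p under 0.05 in edgeR). Between day 14 and day 8 edgeR called 7 lower, beside 6.58% of all genes, and DESeq2 called 4 and limma-voom 1. Ptcd1, whose protein binds mitochondrial leucine tRNAs, changed most, from 20.6 and 10.8 CPM at day 8 to 0.995 at day 14, which is 4 reads (−3.97, SE 0.70). Fastkd5, which acts on mRNA ends not flanked by a tRNA, followed at −1.95 (SE 0.67, adjusted p = 0.0407), but was not called with DESeq2 (adjusted p = 0.1004) or limma-voom (adjusted p = 0.239). With stricter cells, those of at least 200000 reads and 2000 genes, Fastkd5 was at −0.17, where the median of all genes was −0.55. Between day 14 and day 0, where 0.720% of all genes were called lower, Ptcd1 was the only one called, and was lower. Between day 12 and day 8, where 1.39% of all genes were called higher, the only one was Mrm1, an rRNA methyltransferase. It was higher, at 1.35 (SE 0.35, adjusted p = 0.0177 by edgeR). DESeq2 called neither Ptcd1 against day 0 (adjusted p = 0.0801) nor Mrm1 (adjusted p = 0.15), and limma-voom did not call that Ptcd1 difference (adjusted p = 0.245). Spike-in scaling put Mrm1 at 0.46, where the median of all genes was −0.91.

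In the list of 10 nucleotide supply genes, 1 was called higher and 1 lower between day 8 and day 0, beside 2.61% and 3.02% of all genes. Slc25a33, a pyrimidine nucleotide carrier, rose from 2.64 CPM at day 0 to 14.7 and 10.0 at day 8 (2.23, SE 0.60, adjusted p = 0.0163). Slc25a36, another pyrimidine nucleotide carrier, fell from 45.8 to 20.3 and 23.5 (−1.07, SE 0.32, adjusted p = 0.032), a call lost with DESeq2 (adjusted p = 0.155), with stricter cells (−0.57) and under spike-in scaling (−0.085). Under spike-in scaling the median of all genes was 0.99 in that comparison. Tk2, the mitochondrial thymidine kinase, had 8.87 and 14.3 at day 8 and was higher at day 12, at 30.4 (1.39, SE 0.37, adjusted p = 0.0212), and at day 14, at 33.1 (1.51, SE 0.38, adjusted p = 0.0047). Dguok, the deoxyguanosine kinase, was also higher at day 12 than at day 8 (1.11, SE 0.28, adjusted p = 0.0167). Between day 12 and day 8, DESeq2 called neither Tk2 (adjusted p = 0.188) nor Dguok (adjusted p = 0.101). Spike-in scaling put them at 0.5 and 0.21, where the median of all genes was −0.91. The Tk2 difference between day 14 and day 8 was 0.091 under spike-in scaling and 0.59 with stricter cells, where the medians of all genes were −1.49 and −0.55. limma-voom did not call that difference (adjusted p = 0.066).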

How the data were processed

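Read counts per gene and cell were deposited by the authors as whole numbers, not normalised. The submitters' processing notes name GSNAP, HTSeq 0.5.3p3 and the mm10 build, and the labels' protocols describe Smart-seq2 on sorted single cells. Rows that name no gene took a median of 91.1% of reads per cell, and 79.2% were unaligned. These rows and 92 spike-in rows stayed out of library sizes. Symbols matched 45143 of 46078 gene rows. Of the count columns, 1 had no matching sample and was not used.

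Counts were summed over kept cells of each of 6 sets. Genes passing edgeR's expression filter, and detected in 10% or more of a set's kept cells, were fitted with edgeR 4.0.16 (R 4.3.3), with TMM scaling and day as the only term. Shares have no replicate except at day 8. Summed counts cover 47 to 93 cells per set, and intervals on shares and ratios cover counting error only, since reads carry no molecular identifiers. Doublets were not called: cells were sorted singly.

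Named are all mRNA and rRNA genes, the 5 tRNA genes with the highest mean level and those called, called genes of the nuclear lists with the largest changes (up to 4 between days 8 and 0 and up to 2 otherwise), and the 5 nuclear genes most and least like the mitochondrial mRNAs. The members and lists were chosen with earlier results of these data known. Alternatives covered scaling, filters, thinning, Slc34a2, DESeq2 1.42.0 and limma-voom 3.58.1. A filter of 4000 genes per cell was chosen after seeing the data.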

Additional observations from a re-analysis of the deposited data

How the results depend on the processing

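The number of members called moved with several choices. Under spike-in scaling the median of all genes was 0.99 between day 8 and day 0, −0.91 between day 12 and day 8 and −1.49 between day 14 and day 8 (log2). This scaling called 3 of 29 members between day 8 and day 0, 1 between day 14 and day 0, 9 between day 12 and day 8 and 17 between day 14 and day 8, against 0, 0, 0 and 1. Of all 15145 genes it called 6582, 626, 5524 and 9293 in the same order, against 853, 239, 378 and 2145 with TMM scaling. The single calls between day 10 and day 0, day 10 and day 8, and day 14 and day 8 became 0 with stricter cells (at least 200000 reads and 2000 genes) and with thinned cells, where no gene of the whole table passed. Those against day 8 also became 0 with limma-voom and the DESeq2 test, and that at day 10 with DESeq2 size factors and without Slc34a2. Between day 12 and day 0, the call count was 1 with no cell filter and with at least 4000 genes per cell (mt-Tq, adjusted p = 0.0478 and 0.025). Genes of the nuclear lists called numbered 94 (day 8 against day 0) and 115 (day 14 against day 8) under spike-in scaling, against 2 and 13. These stand beside the 6582 and 9293 of all genes that this scaling called. The 13 became 23 with stricter cells, 2 with limma-voom and 0 with thinned cells. Of all genes, these settings called 2906 of 15661, 875 of 15145 and 0 of 12208 in that comparison. The cause of these changes was not tested.

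Signs changed between day 8 and day 0 under spike-in scaling, to 0.66 for mt-Rnr1, 0.97 for mt-Co1, 0.67 for mt-Cytb and 0.34 for mt-Nd6, and without a gene filter to 0.0501 for mt-Co1. Gm10925 between day 14 and day 8 went to −0.57 under spike-in scaling and −1.94 with stricter cells, where the medians of all genes were −1.49 and −0.55.

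Without Slc34a2 the share was 6.98% (day 0), 6.82% (day 8), 6.03% (day 12) and 6.17% (day 14). Per spike-in read it was 2.37, 4.63, 3.53, 2.21 and 1.55 reads at days 0, 8, 10, 12 and 14. The day 14 share was 3.52% with all cells and 5.18% with stricter cells, of which day 14 has 4, and each day 8 set alone gave 5.62% to 6.52%.

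Counted per base, complex I took 46.0%, 48%, 41.7%, 44.5% and 46.8%, complex III 26.9%, 23.5%, 28.6%, 29.3% and 27.4%, complex IV 26.6%, 28.2%, 29.3%, 25.7% and 25.2%, and complex V 0.464%, 0.354%, 0.360%, 0.372% and 0.564% at days 0, 8, 10, 12 and 14. With the copies added, complex V took 0.488%, 0.337%, 0.315%, 0.373% and 0.620%. With stricter cells, day 14 gave 36.4% (I), 24.7% (III), 38.7% (IV) and 0.156% (V), day 12 gave 28.4% (III) and 0.151% (V), and day 0 gave 0.200% (V). Medians over cells were 25.8% (day 10) and 27.3% (day 12) for complex III, and 0.165% (day 0), 0.137% (day 10) and 0.1005% (day 14) for complex V. Thinned cells gave 0.189% (day 8), 0.234% (day 12) and 0.390% (day 14) for complex V. Movements were judged against the SD of the day 8 sets.

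Leaving out a day 8 set leaves no residual degree of freedom, so it gave values with no test. No paired analysis was possible because the groups share fewer than 2 replicate numbers. Depth limits the tRNAs most, where day 14 rests on 345 reads.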
